A study of Mus musculus with 11 samples.

Results

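The loci described here are 6 mouse genes, Pde7b, Sgip1, Rftn1, Kcnk10, Adamts13 and Nat8f3. At these, few regions of open chromatin were called in esophageal cells that express SmoM2, an active form of the Hedgehog pathway protein Smoothened. A region is a stretch of the genome where at least 1 of the 11 deposited interval lists had an interval, after all lists for chromosomes 1 to 19 and X were merged at an overlap of 1 bp or more. Each region was given to the protein-coding gene body nearest to its midpoint within 100 kb, and a region was counted as open in a library where that library's list held an interval in it. Of 124941 regions, 50 belonged to the 6 genes: 20 to Pde7b, 11 to Kcnk10, 6 to Rftn1, 5 to Sgip1, 4 to Adamts13 and 4 to Nat8f3. The 6 genes are among 17712 with at least 1 region and among 15358 with a mean of at least 1 open region over the 9 non-embryonic libraries. Pde7b and Kcnk10 would pass that filter on the counts of the SmoM2 groups alone, and the other 4 passed it through their WT counts, so the passing of those 4 says nothing more.

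The genes were chosen by their low counts of open regions in SmoM2 and in SmoM2-Sox9cKO cells against WT, so those counts are a description and carry no test. By their log2 change in SmoM2 against WT, on scaled counts as defined further on, they rank 5 to 10 in a filtered list. That list held loci called lower, with all SmoM2 counts below all WT counts and no Gm or Rik name. Sox11 at -3.11 lies just above the first of the chosen genes, Sgip1 at -2.86. Gask1a at -2.45 lies just below the last, Kcnk10 at -2.54. The places of Nat8f3 and Adamts13 rest on the pseudocount, since no SmoM2 library had an open region there. The distance limit left nothing out: the farthest of the 50 regions lies 51.0 kb from Pde7b.

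Chromatin accessibility was profiled by ATAC-seq, in which a transposase cuts and tags open DNA. Cells of the esophagus came from 3 genotypes with 3 libraries each: wild type (WT, strain CD1), Krt5-SmoM2 (called SmoM2, strain CD1) and Krt5-SmoM2-Sox9fl/fl (called SmoM2-Sox9cKO, no strain given). The embryonic group had 2 libraries of esophagus at embryonic day 13 from Krt8YFP mice (called Embryo), with cells sorted on YFP. The labels give no age for the other 9 libraries. Krt5, named in both genotypes with SmoM2, is a keratin gene of basal epithelial cells. The SmoM2-Sox9cKO cells carry SmoM2 together with floxed Sox9 alleles, so both groups share SmoM2. WT cells were sorted for low EpCAM, a surface protein of epithelial cells, and cells of both SmoM2 groups for high EpCAM. Gate and genotype therefore cannot be told apart in any comparison with WT. Replicates are numbered, but nothing says that they are separate animals, so their spread may be technical.

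Open chromatin marks promoters and enhancers that proteins can reach, and a gene used in one cell type often has open regions within its introns and flanks that other cell types lack. The 6 genes share no pathway. Pde7b encodes a phosphodiesterase that breaks down cAMP, the messenger that activates protein kinase A, which restrains Gli transcription factors in Hedgehog signaling. Sgip1 encodes an adaptor of clathrin-mediated endocytosis that is best known from brain, and Rftn1 encodes raftlin, a protein of lipid rafts studied in lymphocytes. Kcnk10 encodes TREK-2, a potassium channel of the K2P family that carries background current. Adamts13 encodes the protease that cleaves von Willebrand factor in blood, and Nat8f3 belongs to a cluster of N-acetyltransferase genes.

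The 9 non-embryonic lists held 69116 to 87966 intervals, and 66707 to 85278 regions were open per library, against 24547 and 14045 in the Embryo libraries. Read depth is not given, so a closed region means only that no interval was called. Regions of 10 basal epithelial marker genes summed to 93 to 103 in WT, 97 to 124 in SmoM2 and 104 to 113 in SmoM2-Sox9cKO, with no marker at 0, and 0 of 10 passed the limma test in SmoM2 against WT (2 at an unadjusted p under 0.05). Squamous markers summed to 67 to 69, 67 to 81 and 63 to 75, with no marker at 0, and Krt4 and Lor were lower in SmoM2 (2 of 10). Fibroblast markers summed to 26 to 29, 24 to 25 and 28 to 33, with Lum at 0 in every group; in SmoM2, Dpt, Tbx15 and Col6a3 were lower and Twist2 was higher (7 tested). Muscle markers summed to 23 to 26, 15 to 23 and 17 to 28, with Tagln and Myf5 at 0, and Acta2 was lower in SmoM2 (6 tested). Endothelial markers summed to 56 to 69, 65 to 79 and 74 to 77, with no marker at 0, and in SmoM2 Pecam1, Cdh5 and Emcn were higher and Esam and Flt1 lower (10 tested). Immune markers summed to 11 to 17, 16 to 20 and 16 to 20, with Lyz2 and Tyrobp at 0 in every group and Ptprc higher in SmoM2 (6 tested). Schwann and neural markers summed to 28 to 33, 28 to 29 and 26 to 33, with Snap25 higher and Hand2 lower (7 tested). Melanocyte markers summed to 16 to 22, 22 to 23 and 17 to 20, and 0 of 5 passed limma (0 at an unadjusted p under 0.05). In SmoM2-Sox9cKO against WT, Twist2, Pecam1, Cdh5, Tek, Emcn and Snap25 were higher and Esam, Hand2, Acta2 and Cnn1 lower, and no other of these markers passed limma. Intervals at 4 Y-linked genes numbered 5, 0 and 0 in WT, 9, 9 and 9 in SmoM2, and 8, 10 and 0 in SmoM2-Sox9cKO. The part of these cell types and of the Y-linked intervals in the results below was not tested by these sums. Fewer cells of a type and less openness per cell cannot be told apart.

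Over the 6 loci together, 33, 41 and 38 of the 50 regions were open in the WT libraries. The SmoM2 libraries had 2, 5 and 9, and the SmoM2-Sox9cKO libraries had 13, 8 and 13. No library of either SmoM2 group reached the lowest WT library. Gene by gene, all 3 SmoM2 counts lay below all 3 WT counts at 6 of 6 loci, where 5.59% of all loci showed this, and so did all 3 SmoM2-Sox9cKO counts, where 5.2% did. Between the SmoM2 groups, SmoM2-Sox9cKO lay wholly below SmoM2 at 0 of 6, where 3.61% of loci did. As shares, 66.0% to 82.0% of the 50 regions were open in WT, beside 53.4% to 60.6% of all regions. In SmoM2 the share was 4.0% to 18.0%, beside 59.0% to 68.3% of all regions, and in SmoM2-Sox9cKO it was 16% to 26%, beside 57.5% to 64.5%. None of the 50 regions was open in all 9 non-embryonic libraries, as 35.6% of all regions were. No region was open in 3 of 3 SmoM2 and 0 of 3 WT libraries.

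The word shut holds for some of these regions and not for others. Of the 50 regions, 11 were open in 3 of 3 WT libraries and in 0 of 6 libraries of the SmoM2 groups, a pattern that 1.77% of all regions showed. Another 6 were open in 3 of 3 WT and 0 of 3 SmoM2 libraries but in some SmoM2-Sox9cKO library (1.34% of all regions). In 3 of 3 WT and some SmoM2 library 10 were open (43.5% of all regions). Regions open in 3 of 3 WT and 0 of 3 SmoM2 libraries, whatever SmoM2-Sox9cKO showed, made up 3.11% of all regions. A further 19 were open in only 1 or 2 of the WT libraries (23.5% of all regions), and 4 in none of them (29.8%). In neither SmoM2 group were 28 open, in both groups 9, in SmoM2 alone 3 and in SmoM2-Sox9cKO alone 10. Of these, in the same order, 26, 9, 3 and 8 were open in a WT library. Shares over all regions were not computed for these patterns. The 11 lost regions were spread over 5 of the loci: 4 at Pde7b, 3 at Kcnk10, 2 at Rftn1, 1 at Adamts13, 1 at Nat8f3 and 0 at Sgip1.

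**Figure D1:**
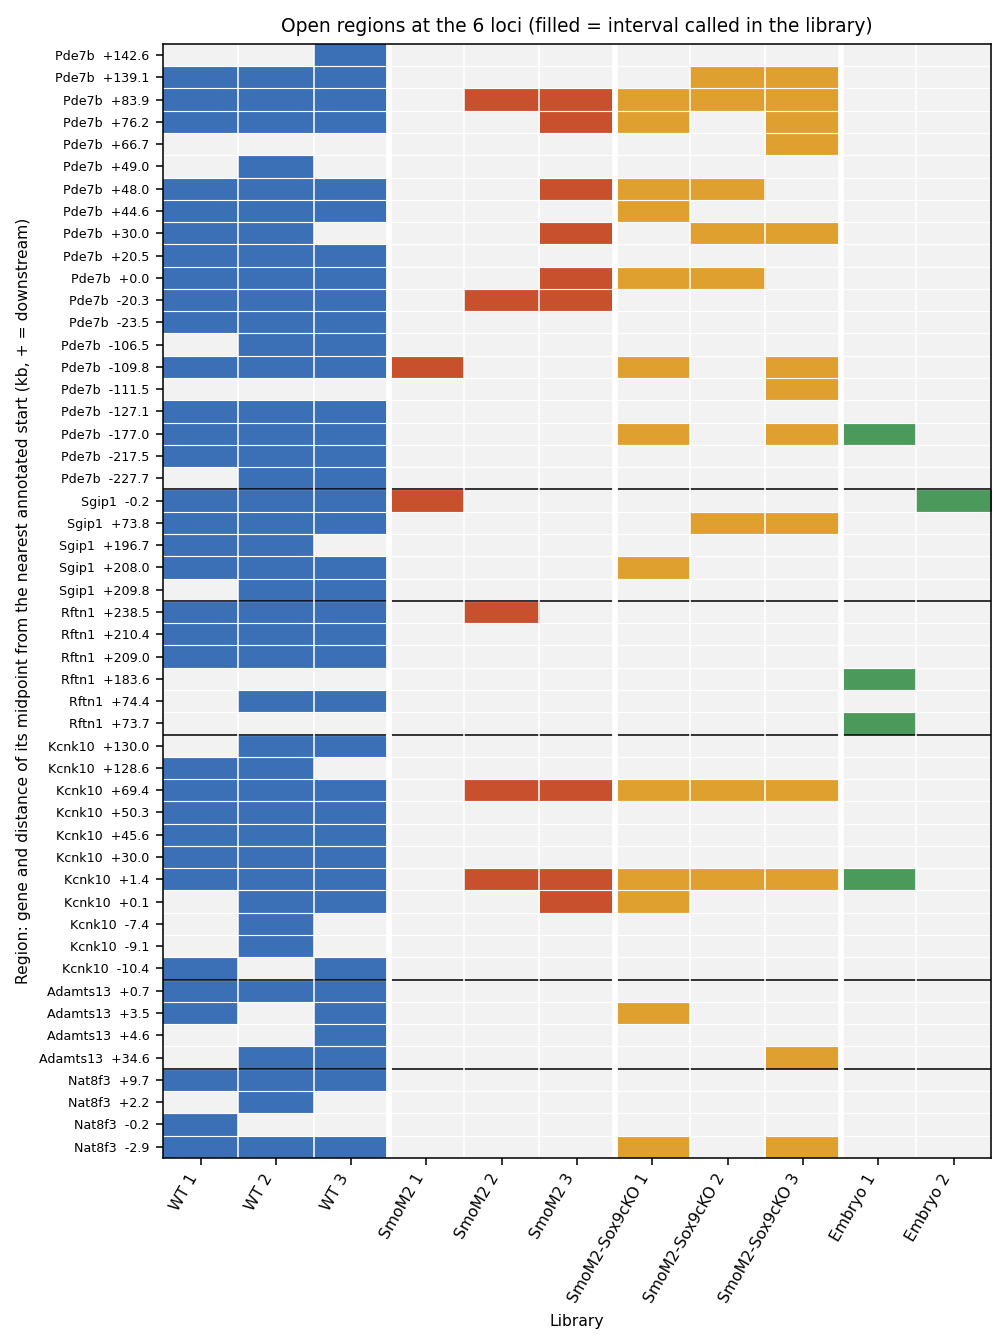
Each row is 1 of the 50 regions, named by gene and by the distance in kb of its midpoint from the nearest annotated start (+ is downstream), and each column is 1 of the 11 libraries. A filled cell is a called interval (blue WT, red SmoM2, yellow SmoM2-Sox9cKO, green Embryo), and the WT columns hold 33 to 41 filled cells against 2 to 9 in SmoM2 and 8 to 13 in SmoM2-Sox9cKO.

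Pde7b, whose gene body spans 328.0 kb on GRCm38 (chr10:20397052-20725078), had the most regions. Its WT libraries had 14, 17 and 16 open regions, the SmoM2 libraries 1, 2 and 6, and the SmoM2-Sox9cKO libraries 7, 5 and 8. The WT counts lay apart from both, while the ranges of the SmoM2 groups overlapped, and the mean of SmoM2-Sox9cKO (6.67 ± 1.53, SD, n = 3) was above that of SmoM2 (3.0 ± 2.65). The strongest of its lost regions, chr10:20527394-20528240 in the gene body, had fold enrichments by the authors of 6.96, 6.95 and 7.46 in the WT libraries. A second, chr10:20674934-20675826, also in the gene body, had 4.76, 4.28 and 4.15. The third, chr10:20765452-20766154, lay 40.7 kb outside the gene and had 3.30, 3.21 and 3.87. A region that ranked higher by the authors' −log10 p in WT, chr10:20463618-20465201 in the gene body, was not lost in every library: it was open in 3 WT, 2 SmoM2 and 3 SmoM2-Sox9cKO libraries. Its fold was 6.45, 6.37 and 6.58 in WT, 3.19 and 4.24 in SmoM2, and 4.88, 3.78 and 5.35 in SmoM2-Sox9cKO. The region at the upstream end of the gene body, chr10:20724673-20726066, had its midpoint 0.3 kb outside the gene. That region was open in 3 WT, 0 SmoM2 and 2 SmoM2-Sox9cKO libraries and in Embryo 1.

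The annotated Pde7b start in the RefSeq promoter table (GRCm38.p6) lies inside the gene body, on the minus strand, and chr10:20547824-20548883 covers it. That region was open in 3 WT, 1 SmoM2 and 2 SmoM2-Sox9cKO libraries, with folds of 5.13, 5.08 and 7.19 in WT, 3.71 in SmoM2 3, and 4.42 and 3.93 in SmoM2-Sox9cKO. The 250 bases before that start are shown because this window kept an open call in some libraries of each SmoM2 group. They hold 10 CpG pairs, more than 62.2% of promoters in the table hold, and neither of the motifs marked in capitals at the genes that follow (the GC box letters GGGCGG and the TEAD letters GGAATG, on either strand).
Pde7b, chr10:20548329-20548578, minus strand: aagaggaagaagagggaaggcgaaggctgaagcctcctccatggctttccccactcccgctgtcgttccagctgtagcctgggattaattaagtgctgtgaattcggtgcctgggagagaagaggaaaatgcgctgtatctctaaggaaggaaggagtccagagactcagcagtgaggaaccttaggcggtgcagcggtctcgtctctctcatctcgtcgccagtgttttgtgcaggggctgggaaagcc

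Sgip1 (gene body chr4:102741302-102977426, 236.1 kb) had 4, 5 and 4 open regions in the WT libraries. Counts were 1, 0 and 0 in SmoM2 and 1, 1 and 1 in SmoM2-Sox9cKO, all below the WT counts and overlapping each other. All 5 of its regions lay in the gene body. The region over its start, chr4:102759176-102760714, had folds of 3.66, 6.08 and 4.98 in WT and 2.77 in SmoM2 1, and it was closed in the other SmoM2 and in all SmoM2-Sox9cKO libraries. Of the gene's regions open in 3 of 3 WT libraries, the other two were open in SmoM2-Sox9cKO libraries that differed between them. Region chr4:102833560-102834250 was open in SmoM2-Sox9cKO 2 and 3, and region chr4:102967804-102968403 in SmoM2-Sox9cKO 1. So each SmoM2-Sox9cKO library kept 1 region, and none kept the start. Among all promoter windows (250 bases before to 50 after a start) that were open in 3 of 3 WT libraries, 1.56% were open in at most 1 SmoM2 library, as this one was. A window counted as open in a library where a region overlapping it was open there, wherever in the region the interval lay. The bases before the start hold 8 CpG pairs, 1 GC box and 1 TEAD match, in capitals.
Sgip1, chr4:102759885-102760134, plus strand: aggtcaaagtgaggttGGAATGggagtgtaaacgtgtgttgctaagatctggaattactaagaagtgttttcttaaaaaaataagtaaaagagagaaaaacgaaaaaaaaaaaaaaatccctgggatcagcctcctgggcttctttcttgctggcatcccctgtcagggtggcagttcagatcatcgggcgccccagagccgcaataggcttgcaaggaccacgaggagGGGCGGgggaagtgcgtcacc

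Rftn1 (gene body chr17:49993258-50190497, 197.2 kb) had 3, 4 and 4 open regions in WT, 0, 1 and 0 in SmoM2, and 0, 0 and 0 in SmoM2-Sox9cKO. It was the only one of the 6 loci listed at 0 in every SmoM2-Sox9cKO library. Its WT regions lay mostly outside the gene, beyond its 3′ end. The strongest, chr17:49979776-49980353, 13.2 kb outside, had folds of 4.57, 7.0 and 5.58 in WT, and chr17:49981159-49981812, 11.8 kb outside, had 3.83, 3.19 and 3.83. Both were called in none of the 6 libraries of the SmoM2 groups. The single SmoM2 call, in SmoM2 2 with a fold of 3.19, was at chr17:49951648-49952316, 41.3 kb outside. The Rftn1 promoter window was open in none of the 11 libraries, WT included. Its upstream bases are shown because they are unusual for a window with no call: they hold 23 CpG pairs, more than 86.7% of promoters hold. Of 4370 promoters with at least that many, 92 (2.11%) had no region in any library. The capitals mark 2 GC boxes.
Rftn1, chr17:50190498-50190747, minus strand: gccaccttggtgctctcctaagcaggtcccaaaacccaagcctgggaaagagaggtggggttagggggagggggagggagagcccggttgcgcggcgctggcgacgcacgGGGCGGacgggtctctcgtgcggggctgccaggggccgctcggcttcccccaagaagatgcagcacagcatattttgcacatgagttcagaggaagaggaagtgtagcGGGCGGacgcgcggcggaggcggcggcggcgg

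Kcnk10 (gene body chr12:98429432-98578213, 148.8 kb) had 7, 10 and 8 open regions in WT, 0, 2 and 3 in SmoM2, and 3, 2 and 2 in SmoM2-Sox9cKO. The highest count of either SmoM2 group was 3, below the lowest WT count of 7. Its 3 lost regions lay in the gene body, at WT percentiles by the authors' −log10 p of 55.6, 53.8 and 17.9, where 100 is the strongest interval of a list. Region chr12:98544648-98545624 had folds of 8.79, 7.12 and 5.53 in the WT libraries. Region chr12:98529130-98529963 had 5.81, 7.37 and 5.63, and chr12:98524291-98525359 had 3.46, 3.79 and 3.24. A pair of Kcnk10 regions stayed open in 5 of the 6 libraries of the SmoM2 groups, all but SmoM2 1. One, chr12:98505135-98506244 in the gene body, had folds of 8.87, 11 and 6.68 in WT, 3.19 and 3.98 in SmoM2, and 7.99, 10.9 and 6.85 in SmoM2-Sox9cKO. The other, chr12:98572360-98575194, reaches the window of the downstream annotated start and was also open in Embryo 1.

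Kcnk10 has a pair of annotated starts on the minus strand, and their bases are set side by side because their windows differed in openness. The upstream start, with 4 CpG pairs, was open in WT 2 and 3, SmoM2 3 and SmoM2-Sox9cKO 1. The downstream start, with 16 CpG pairs, is reached only by the edge of chr12:98572360-98575194, 2835 bp wide and centred 1.4 kb downstream. That region was open in all WT and SmoM2-Sox9cKO libraries, in SmoM2 2 and 3 and in Embryo 1. Whether the interval of each library reached the start was not checked. Capitals mark the GC box and TEAD letters, which the upstream start alone holds.
Kcnk10 upstream start, chr12:98578214-98578463: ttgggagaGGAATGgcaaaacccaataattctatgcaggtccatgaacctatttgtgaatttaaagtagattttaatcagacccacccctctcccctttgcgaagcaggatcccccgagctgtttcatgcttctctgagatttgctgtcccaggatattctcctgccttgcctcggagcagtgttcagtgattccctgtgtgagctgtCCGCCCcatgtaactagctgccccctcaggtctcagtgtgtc
Kcnk10 downstream start, chr12:98575128-98575377: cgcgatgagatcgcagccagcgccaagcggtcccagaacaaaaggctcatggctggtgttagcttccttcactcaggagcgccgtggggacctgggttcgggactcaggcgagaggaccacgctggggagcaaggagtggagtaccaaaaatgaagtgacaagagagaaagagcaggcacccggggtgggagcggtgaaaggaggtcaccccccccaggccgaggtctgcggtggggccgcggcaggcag

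Adamts13 (gene body chr2:26973361-27009625, 36.3 kb) had 2, 2 and 4 open regions in WT and 0, 0 and 0 in SmoM2. SmoM2-Sox9cKO had 1, 0 and 1. The counts did not overlap between WT and either SmoM2 group, but the lowest WT count exceeded the highest SmoM2-Sox9cKO count by a single region. Only 1 of its 4 regions was open in 3 of 3 WT libraries: chr2:26973813-26974369, centred 0.7 kb downstream of the start, with folds of 3.08, 3.48 and 3.31, was called in neither SmoM2 group. The SmoM2-Sox9cKO calls fell in separate regions, chr2:26976622-26977212 in SmoM2-Sox9cKO 1 and chr2:27007833-27008120 in SmoM2-Sox9cKO 3. The Adamts13 promoter window itself was open in no library, and its upstream bases hold 1 CpG pair.

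Nat8f3, with the shortest gene body of the 6 (chr6:85760631-85765767, 5.1 kb), had 3, 3 and 2 open regions in WT, 0, 0 and 0 in SmoM2 and 1, 0 and 1 in SmoM2-Sox9cKO. As at Adamts13, all SmoM2 libraries were at 0, and WT lay above SmoM2-Sox9cKO by at least a single region. The lost region, chr6:85755622-85756557, lay 4.5 kb outside the gene and had folds of 3.30, 4.01 and 5.53. The region kept in SmoM2-Sox9cKO 1 and 3 was chr6:85768193-85769031, 2.8 kb outside on the start side, with folds of 5.56, 4.81 and 4.98 in WT and 3.87 and 2.98 in SmoM2-Sox9cKO. At the Nat8f3 start an interval was called in WT 1 only.

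**Figure D2:**
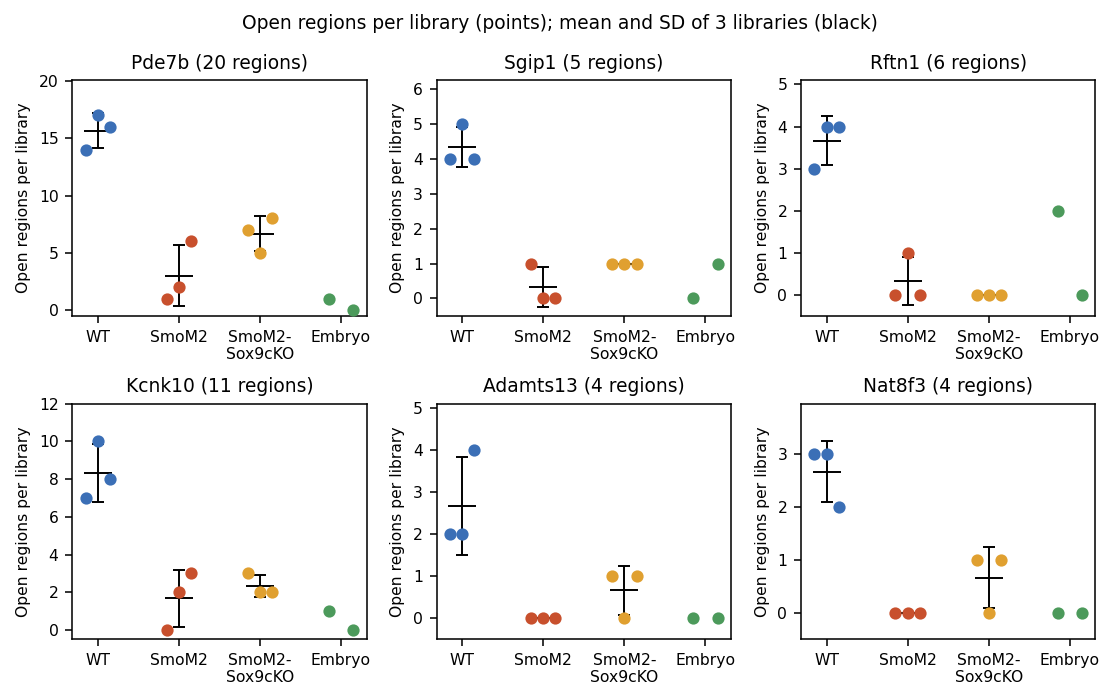
Points show the number of open regions (y axis) at each of the 6 loci in each library, by group (x axis); black marks show the mean and SD of 3 libraries. At every locus the WT points lie above all points of both SmoM2 groups, and at Pde7b SmoM2-Sox9cKO (5 to 8) lies between WT (14 to 17) and most of SmoM2 (1 to 6).

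On the log2 scale of open regions scaled to the library's total, with a pseudocount of 0.5, Pde7b changed by -2.60 (SE 0.41), Sgip1 by -2.86 (SE 0.38), Rftn1 by -2.64 (SE 0.39) and Kcnk10 by -2.54 (SE 0.58) in SmoM2 against WT. The values of Sgip1 and Rftn1, with a single SmoM2 library above 0 at each, depend on the pseudocount. For Adamts13 and Nat8f3 no fold is given, since SmoM2 is listed at 0. All 6 loci were called lower by limma (adjusted p under 0.05 over all loci), where 5.8% of 15358 loci were; the rule chose them so, and nothing is read from it. The rule used SmoM2-Sox9cKO against WT as well, so the same holds there, where 4 of 6 were called lower (Sgip1, Rftn1, Adamts13 and Nat8f3) beside 3.45% of loci. The log2 changes of the other two were -1.25 (SE 0.41) for Pde7b and -1.71 (SE 0.58) for Kcnk10. In SmoM2-Sox9cKO against SmoM2, 0 of 6 were called in either direction by limma, where 0.43% of loci were lower and 0.436% higher; 4 of the 6 (Pde7b, Sgip1, Adamts13 and Nat8f3) were higher at an unadjusted p under 0.05, which is likewise no test of loci chosen in both groups. The log2 differences were 1.34 for Pde7b (SE 0.41), 1.12 for Sgip1 (SE 0.38) and 0.84 for Kcnk10 (SE 0.58). Rftn1 went the other way, from a single call in SmoM2 to none in SmoM2-Sox9cKO. These comparisons share their WT or SmoM2 libraries.

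Since the rule used both contrasts, a call that holds under other settings supports nothing, and only the losses are given. In SmoM2 against WT, the Kcnk10 call was lost without scaling, with the Y-linked term and without WT replicate 1, 2 or 3, its log2 change lying between -3.82 and -1.70. In SmoM2-Sox9cKO against WT, Sgip1 was called in 9 of 16, lost without scaling and without any 1 of the WT or SmoM2-Sox9cKO libraries. Adamts13 was called in 6 of 14, lost among others without WT replicate 1 or 2 and without SmoM2 replicate 1, 2 or 3. Nat8f3 was called in 10 of 13, lost without scaling, with the Y-linked term and without SmoM2 replicate 3.

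Strength in WT differed among the regions by whether they were seen in the SmoM2 groups. Each interval was ranked by the authors' −log10 p within its own list, as a percentile from 0 (weakest) to 100. The 46 regions open in a WT library were compared by their median percentile over the WT lists. The 9 open in both SmoM2 groups had a median of 54.3 (range 9.4 to 80.9). The 26 open in neither had a median of 12.4 (range 0.2 to 56.5). The 8 open in SmoM2-Sox9cKO alone had 25.6, and the 3 open in SmoM2 alone had 28.8. The ranges overlap widely, and the weakest regions were often called in only 1 or 2 WT libraries. The 11 lost regions ran from 4.7 to 56.5 with a median of 20.4, where the 2216 regions of that pattern in the genome had a median of 28.9. The 10 regions open in 3 of 3 WT and some SmoM2 library had 45.6, where the 54366 of that pattern in the genome had 62.8. The same order thus held over all regions and is not particular to these loci. Read depth is not given, and its part in the missing calls was not tested.

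**Figure D3:**
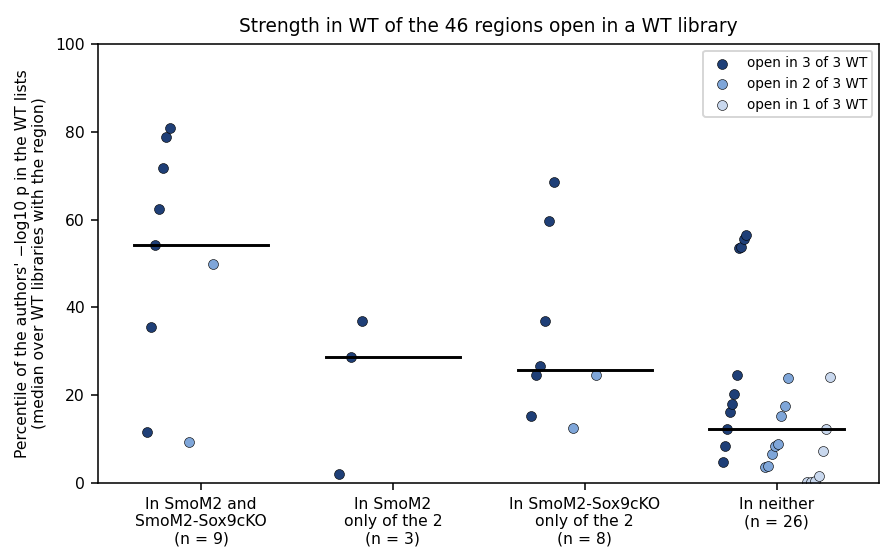
Each point is 1 of the 46 regions open in a WT library; the y axis is its percentile by the authors' −log10 p (median over WT lists with the region), and the x axis is whether any library of the SmoM2 groups had it. Shade gives the number of WT libraries with the region and the black line the median, which is 54.3 for regions open in both SmoM2 groups and 12.4 for those open in neither.

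With a stricter threshold (−log10 q of at least 5) the 6 loci kept 15, 24 and 22 open regions in WT, 0, 0 and 1 in SmoM2 and 7, 3 and 5 in SmoM2-Sox9cKO. With lists cut to an equal length they had 33, 31 and 30, then 0, 2 and 1, then 8, 7 and 12. WT stayed apart from both groups under either setting. The loci were chosen for that difference, so its persistence supports nothing. In each setting the SmoM2-Sox9cKO counts also lay above the SmoM2 counts, which they did not in the full lists. The choice used the counts of both groups, and the loci rank near the top by their SmoM2 change. This difference therefore supports nothing either.

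By position, 38 of the 50 regions (76.0%) had their midpoint in the gene body, where 60.5% of all regions with a gene did. A promoter window of the same gene was overlapped by 5 (10%), where 10.4% of all regions overlapped one. The exon or intron of a region was not used here. Of the 7 promoter windows of the 6 genes, 3 were open in 3 of 3 WT libraries, where 45.2% of all windows were, and 2 in no library, where 48.4% were. None of the 3 was closed in all 6 libraries of the SmoM2 groups, as 0.306% of windows open in WT were. Across the 250 upstream bases of the 7 promoters of the 6 genes, motifs were searched on both strands. GC boxes (GGGCGG, in 32.7% of all promoters) were found at Sgip1, Rftn1 and the upstream Kcnk10 start. TEAD letters (GGAATG, 12.6%) were found at Sgip1, Adamts13 and the upstream Kcnk10 start. None held the AP-1 letters TGANTCA, present in 6.75% of promoters, or those of the cAMP response element, TGACGTCA, present in 1.55%. None held the SOX letters ACAAT (27.7% of promoters) or the GLI letters GACCACCCA (0.225%). The RUNX letters TGTGGT (14% of promoters) and the TATA box TATAAA (12.4%) were likewise not found. E-boxes (CANNTG, 66.2%) were found at Pde7b, Rftn1, Adamts13 and Nat8f3. A match or its absence in these windows says nothing of binding.

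In the embryonic esophagus the 6 loci had few open regions. Embryo 1 had 4 of the 50 (8.0%), where 19.6% of all regions were open in it, and Embryo 2 had 1 (2.0%), where 11.2% were. Those of Embryo 1 were the upstream end of Pde7b (fold 2.87), the region that reaches the downstream start of Kcnk10 (fold 2.77) and a pair at Rftn1. By −log10 p, the Pde7b and Kcnk10 calls lay at percentiles 2.3 and 0.3 of the Embryo 1 list, among its weakest. The pair at Rftn1, chr17:50006635-50007103 (fold 5.23, percentile 55.7) and chr17:50116597-50116920 (fold 2.87, percentile 2.3), was open in no other library. Embryo 2 had the start of Sgip1 (fold 3.51). Adamts13 and Nat8f3 had none. The Embryo lists are the shortest of the 11, and with 2 libraries no test was made.

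Genes next to the 6 loci were examined to see how far the difference reached: the nearest 2 protein-coding genes on each side of each, 24 in all, of which 17 had enough regions to test. These were not used to choose the loci. In SmoM2 against WT, 6 of the 17 were lower and 0 higher by limma, where 5.8% and 5.24% of all loci were (8 lower and 0 higher at an unadjusted p under 0.05). Kif6, a kinesin gene beside Rftn1, had 16, 16 and 15 open regions in WT, 8, 9 and 10 in SmoM2 and 11, 11 and 13 in SmoM2-Sox9cKO, with no overlap between WT and either. Its log2 change was -0.90 (SE 0.12, limma adjusted p = 0.00216) in SmoM2 and -0.48 (SE 0.12, limma adjusted p = 0.0457) in SmoM2-Sox9cKO. Ptpn21, a tyrosine phosphatase gene 98.5 kb from Kcnk10, had 5 open regions in each WT library and 3 in each library of both SmoM2 groups. It fell by 0.78 in SmoM2 (limma adjusted p = 0.00379) and fell by 0.71 in SmoM2-Sox9cKO (limma adjusted p = 0.0071). Spata7, which lies between Kcnk10 and Ptpn21, had 2 in each WT library and in each library of both SmoM2 groups. Galc, a lysosomal galactosylceramidase gene on the other side of Kcnk10, had 4, 4 and 4, then 2, 3 and 2, then 2, 2 and 2, and fell in both (limma adjusted p = 0.0228 and 0.0188).

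Pde4b, a cAMP phosphodiesterase gene 134.0 kb from Sgip1, had 20, 24 and 27 open regions in WT, 18, 18 and 17 in SmoM2 and 18, 15 and 17 in SmoM2-Sox9cKO. It fell by 0.53 in SmoM2 (SE 0.10, limma adjusted p = 0.0122) and fell by 0.55 in SmoM2-Sox9cKO (limma adjusted p = 0.0127). Myb, a transcription factor gene on the far side of Ahi1 from Pde7b, had 8, 9 and 9 in WT and 7, 6 and 6 in SmoM2 and fell in SmoM2 (limma adjusted p = 0.0098), as did Daam2, a formin gene near Rftn1, with 6, 8 and 8 against 3, 4 and 4 (limma adjusted p = 0.034). In SmoM2-Sox9cKO against WT, 5 of the 17 were lower and 0 higher, where 3.45% and 4% of loci were: Pde4b, Kif6, Galc, Ptpn21 and Alms1, a centrosomal gene beside Nat8f3 (-1.12, SE 0.27, limma adjusted p = 0.0384). Between SmoM2-Sox9cKO and SmoM2, 0 of 17 passed limma, and 2 were higher and 0 lower at an unadjusted p under 0.05. None of the tested neighbours of Adamts13 passed: Rexo4 and Cacfd1 had 1 open region in each of the 11 libraries. Also passing in neither comparison with WT were Mtfr2, Bclaf1 and Ahi1 by Pde7b, Tctex1d1 (1.3 kb from Sgip1), Dazl and Plcl2 by Rftn1, and Spata7. So some lower genes lay beyond nearer genes that did not pass. Over the alternatives the SmoM2 count of lower neighbours ran from 2 (Kif6 and Ptpn21, with the Y-linked term) to 8 and the SmoM2-Sox9cKO count from 2 to 6. Daam2 was lost when any 1 WT or SmoM2 library was left out, Galc in SmoM2 without any 1 WT library or SmoM2 replicate 1 or 3, and Alms1 and Kif6 in SmoM2-Sox9cKO in most such fits. Leaving out any 1 WT library, SmoM2 replicate 1 or SmoM2 replicate 3 left 4 lower in SmoM2. In SmoM2-Sox9cKO, 2 were left without WT replicate 1, and 3 without WT replicate 2 or 3, SmoM2 replicate 2 or 3, or SmoM2-Sox9cKO replicate 1 or 2.

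**Figure D4:**
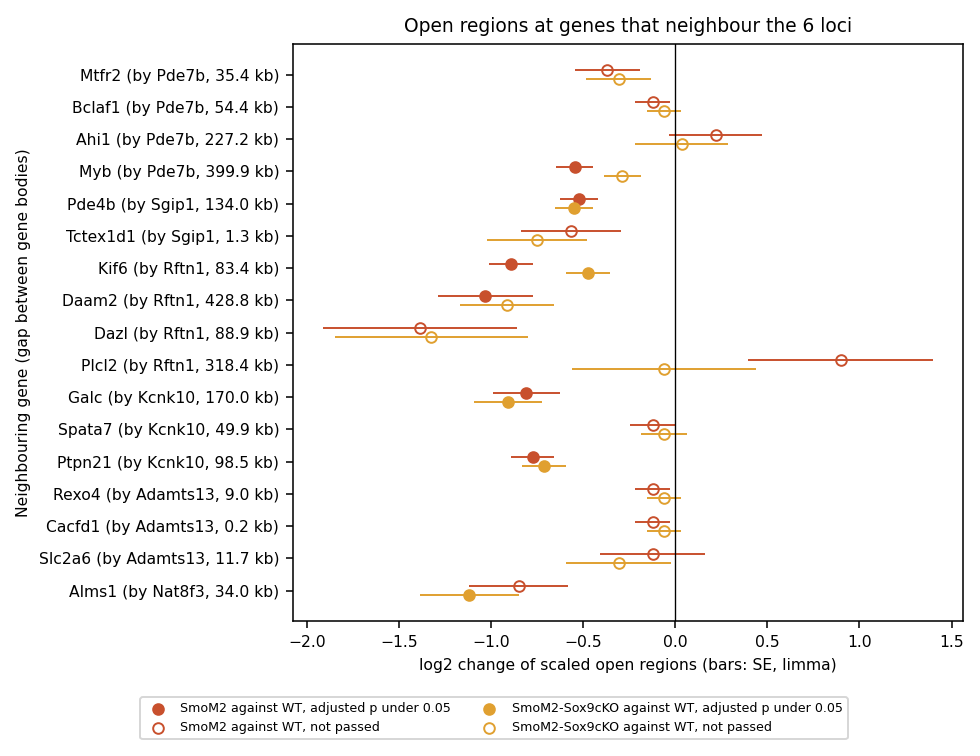
The x axis is the log2 change in scaled open regions against WT (red SmoM2, yellow SmoM2-Sox9cKO; bars are SE from limma) for the 17 tested neighbours, named on the y axis with the locus they adjoin and the gap in kb. Filled points passed at an adjusted p under 0.05, 6 in SmoM2 and 5 in SmoM2-Sox9cKO, all of them lower.

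Within 500 kb of the 6 gene bodies, a window chosen after the data were seen, 181 regions of other genes or of none were open in 3 of 3 WT libraries. Of these 13 (7.2%) were open in 0 of 6 libraries of the SmoM2 groups, where 3.8% of all such regions were. Around Rftn1 it was 3 of 18 and around Kcnk10 3 of 20, while around Adamts13 it was 0 of 31 and around Pde7b 2 of 42. These are small counts and carry no test.

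Genes related to the 6 by function were taken as fixed lists, chosen with earlier results of these data known. Of 18 tested genes of the phosphodiesterase family, 4 were higher and 1 lower in SmoM2 against WT by limma, where 5.24% of all loci were higher and 5.8% lower (5 higher and 1 lower at an unadjusted p under 0.05). Pde1a, which hydrolyses cyclic nucleotides under calcium and calmodulin, had 1, 2 and 1 open regions in WT, 12, 11 and 12 in SmoM2 and 13, 9 and 8 in SmoM2-Sox9cKO. Its log2 change was 2.65 (SE 0.20, limma adjusted p = 9.92e-05) in SmoM2 and 2.47 (limma adjusted p = 0.00018) in SmoM2-Sox9cKO, opposite in sign to that of Pde7b. Pde3b rose from 1 in each WT library to 4, 3 and 4 in SmoM2 (1.34, limma adjusted p = 0.000515), but with regions within 20 kb alone its change was 0.12 and did not pass. Pde8a rose by 0.80 in SmoM2 (limma adjusted p = 0.0262) and by 1.08 in SmoM2-Sox9cKO (limma adjusted p = 0.00956). The 1 lower gene was Pde4b, the neighbour of Sgip1 given above. In SmoM2-Sox9cKO, 3 of 18 were higher and 1 lower, where 4% and 3.45% of all loci were. Of 27 genes that make or answer cAMP, 2 were higher and 2 lower in SmoM2, shares near those of all loci (3 higher and 7 lower at an unadjusted p under 0.05). The adenylyl cyclase gene Adcy8 fell from 6, 8 and 7 to 4, 4 and 3 (limma adjusted p = 0.0225), and Prkar2b, a regulatory subunit of protein kinase A, rose by 0.46 (limma adjusted p = 0.0285). Adcy2, with 2 open regions in each WT library and 1, 0 and 1 in SmoM2, also fell (limma adjusted p = 0.0383).

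Among 12 tested K2P channel genes other than Kcnk10, 2 were higher and 0 lower in both SmoM2 groups by limma (1 lower in each at an unadjusted p under 0.05), where 5.24% and 5.8% of all loci were higher and lower in SmoM2 and 4% and 3.45% in SmoM2-Sox9cKO. Kcnk6 had 1 open region in each WT library, 3, 2 and 3 in SmoM2 and 3, 3 and 3 in SmoM2-Sox9cKO (0.94, limma adjusted p = 0.00427, and 1.16, limma adjusted p = 0.00244). Kcnk12 had 6, 4 and 4, then 9, 9 and 10, then 10, 9 and 10 (0.83, limma adjusted p = 0.0175 in SmoM2); with regions within 20 kb alone its change was -0.0022 in SmoM2 and -0.06 in SmoM2-Sox9cKO. Of 17 tested genes of the list of ADAMTS genes and Vwf, 3 were higher and 1 lower in SmoM2, the lower share being near that of all loci (3 higher and 2 lower at an unadjusted p under 0.05). The extracellular protease gene Adamts12 had 2, 3 and 4 open regions in WT and 9, 9 and 9 in SmoM2 (1.36, limma adjusted p = 0.00157). Adamts8 fell from 2 to 1 in each library (limma adjusted p = 0.0125). Adamts18 had 5, 6 and 5 in WT and 5, 5 and 5 in SmoM2, but 1, 0 and 0 in SmoM2-Sox9cKO, and it fell by 2.87 (SE 0.34, limma adjusted p = 0.012) against SmoM2. That pattern is unlike the one of Adamts13, which was low in both. In the N-acetyltransferase cluster, 3 genes of 9 could be tested. Nat8f4 had 2, 2 and 2 in WT, 0, 0 and 1 in SmoM2 and 2, 1 and 2 in SmoM2-Sox9cKO, and it fell in SmoM2 (-1.92, SE 0.36, limma adjusted p = 0.0111). Nat8f6, too low to test, had 1, 2 and 2 in WT and 0 in all libraries of the SmoM2 groups.

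Of 29 genes of clathrin endocytosis, the process Sgip1 serves, 2 were higher and 2 lower in SmoM2, shares near the 5.24% and 5.8% of all loci (4 higher and 7 lower at an unadjusted p under 0.05). Eps15, an adaptor of coated pits, had 2, 3 and 2 in WT, 1, 1 and 1 in SmoM2 and 3, 2 and 2 in SmoM2-Sox9cKO. It fell by 1.02 in SmoM2 (limma adjusted p = 0.00519), a call lost at the stricter threshold (-0.16) and with lists of equal length (-0.50), and was higher by 0.96 in SmoM2-Sox9cKO against SmoM2 (limma adjusted p = 0.0348). Itsn2 fell by 0.52 in SmoM2 (limma adjusted p = 0.0319) and fell by 0.58 in SmoM2-Sox9cKO (limma adjusted p = 0.0268). Epn1, an epsin, had 2 in each WT and SmoM2 library and 1 in each SmoM2-Sox9cKO library (limma adjusted p = 0.0398 against SmoM2); its change against SmoM2 was 0.04 under the stricter threshold. Of 13 tested lipid raft genes, the setting of Rftn1, 3 were higher and 0 lower in SmoM2 (1 lower at an unadjusted p under 0.05), where 5.24% and 5.8% of all loci were. Cavin2, a coat protein of caveolae, had 5, 7 and 7 in WT, 12, 11 and 13 in SmoM2 and 11, 12 and 9 in SmoM2-Sox9cKO (0.76, limma adjusted p = 0.00381 in SmoM2). Cav2 rose by 0.51 in SmoM2 (limma adjusted p = 0.0334), and Erlin1 by 0.62 in SmoM2-Sox9cKO (limma adjusted p = 0.0352). Most of these lists thus held genes that moved in either direction, and most genes in each list passed in neither.

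The firmness of the calls in these lists varied. Pde1a, Kcnk6, Adamts12 and Cavin2 were called higher in SmoM2 in 17 of 17 alternatives, and Adamts18 was called lower against WT in SmoM2-Sox9cKO in 17 of 17. In SmoM2 against WT, Prkar2b was lost without any 1 WT or SmoM2 library, Adcy2 and Adcy8 without any 1 WT library or SmoM2 replicate 3, and Pde8a without WT replicate 3 or SmoM2 replicate 2 or 3. Kcnk12 was lost without WT replicate 2 or 3 or SmoM2 replicate 2 or 3, Cav2 without WT replicate 1 or 3 or SmoM2 replicate 2 or 3, and Itsn2 without WT replicate 1 or 2 or any 1 SmoM2 library. Without scaling, the SmoM2 calls of Pde4b, Pde8a, Adcy2, Adcy8, Prkar2b, Adamts8, Nat8f4, Itsn2 and Cav2 were lost. With the Y-linked term, those of Pde4b, Pde8a, Adcy2, Adcy8, Kcnk12, Nat8f4, Itsn2 and Cav2 were lost. Of the calls between SmoM2-Sox9cKO and SmoM2, that of Adamts18 held in 16 of 17 alternatives, and those of Eps15 and Epn1 in 5 of 17 each, both being lost without any 1 SmoM2-Sox9cKO library. Erlin1 and Itsn2 in SmoM2-Sox9cKO against WT held in 7 and 10 of 17, and both were lost without WT replicate 1 or SmoM2-Sox9cKO replicate 1 or 2.

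The 6 loci varied together over the 9 non-embryonic libraries to different degrees. The libraries are shared and the loci were chosen for the group difference, so the correlations are a description. Pearson's r between 2 of the loci, on scaled log2 values, ran from 0.585 for Sgip1 and Kcnk10 to 0.956 for Adamts13 and Nat8f3. Adamts13 and Nat8f3 have only 4 regions each. Both had 0, 0 and 0 in SmoM2 and 1, 0 and 1 in SmoM2-Sox9cKO, so the highest r rests on values near the floor. The gene whose profile was most like the mean of the 6 was Rora, which encodes a nuclear receptor (r = 0.993, n = 9 libraries). Its counts were 42, 51 and 49 in WT, 14, 18 and 18 in SmoM2 and 29, 21 and 23 in SmoM2-Sox9cKO, lowest in SmoM2. This gene and those that follow were picked by their r, so a shared order of groups is no separate result. Zfp267 (r = 0.982) had 4 in each WT library, 1 in each SmoM2 library and 2, 1 and 2 in SmoM2-Sox9cKO. Thoc2 (r = 0.981) had 7, 8 and 8, then 4, 4 and 4, then 5, 4 and 5, and Gabpb2 (r = 0.979) had 5, 6 and 6, then 3, 3 and 3, then 4, 3 and 4. Dop1b (r = 0.99) followed the same order only in its small scaled differences: its counts were 7, 8 and 8, then 7, 7 and 8, then 8, 7 and 7.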

How the data were processed

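The deposited files are interval lists, 1 per library, from ATAC-seq of 11 mouse libraries. The submitters' processing notes name Trimmomatic, Bowtie2, Picard, MACS2 and deepTools and the build GRCm38 (mm10); no versions, roles or thresholds are stated. The authors' lists give per interval a score, a fold enrichment, −log10 p and −log10 q values and a summit; fold and −log10 p describe strength within a list, −log10 q sets the stricter alternative, and scores were not used. Lists are per library, not pooled. Intervals were merged into regions and assigned to RefSeq GRCm38.p6 gene bodies. Counts of open regions per gene, log2((count + 0.5)/(total + 1) × 100000), were tested with limma 3.58.1 (variance trend, R 4.3.3) on the 9 non-embryonic libraries in 1 fit, for genes with a mean of at least 1, with Benjamini-Hochberg adjustment over 15358 genes at 0.05; the code was tested on simulated data. The members and gene lists were chosen with earlier results of these data known. Named genes are the 6 members, the nearest 2 genes on each side, up to 3 genes per list with the largest change past the threshold, and the 5 most similar profiles. Named regions are up to 3 lost regions per member by WT strength and every region open in an Embryo library. Other regions, Nat8f6, and Spata7, Rexo4 and Cacfd1 among the neighbours were singled out after their values were seen. Alternatives were −log10 q of at least 5, equal list lengths, 20 kb, no scaling, a pseudocount of 1, no filter, a replicate block, a Y-linked term and each library left out. Promoter sequences come from RefSeq; a genome for other sequences was not used here.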

Additional observations from a re-analysis of the deposited data

How the results depend on the processing

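In SmoM2 against WT, limma called 1696 loci (805 higher, 891 lower); without scaling it called 1108 (764 higher, 344 lower), with the Y-linked term 732, and with 1 library left out 1113 (without SmoM2 replicate 1) to 1700. Scaling moved the median of all loci to -0.123 in this contrast, which is 0 without it. In SmoM2-Sox9cKO against WT, 1144 loci were called, and 761 (without SmoM2-Sox9cKO replicate 2) to 1119 with 1 library left out. In SmoM2-Sox9cKO against SmoM2, 133 were called, 41 at −log10 q of at least 5, 219 without the filter, 35 with the Y-linked term, and 28 (without SmoM2-Sox9cKO replicate 3) to 175 with 1 library left out; it was 32 without SmoM2 replicate 1 and 46 without SmoM2 replicate 2. The cause of these shifts was not tested, beyond the fewer samples of the fits that leave one out. With a replicate block the last contrast had 79 calls. Same-numbered libraries deviated with correlations of -0.067 to 0.081 (9 pairs) and others of -0.116 to 0.117 (18 pairs). No pairing by number was seen in these values, and batches shared by number were not tested. The 11 lost regions became 7 at the stricter threshold and 11 to 16 with 1 library left out (16 without WT replicate 1). Leaving a library out only loosens that pattern, so the count could not fall. The 5 Embryo regions became 1 at the stricter threshold, an alternative chosen after seeing the data. With regions within 20 kb, Kcnk12 changed by -0.0022 in SmoM2 and -0.06 in SmoM2-Sox9cKO, and Pde3b by -0.06 in SmoM2-Sox9cKO; at the stricter threshold Epn1 changed by 0.04 against SmoM2. Loci whose mean fell under 1 region in an alternative have no value there. Read depth is unknown, which limits what a missing interval shows.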
